A study of Danio rerio with 20 samples.

Results

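The genes described here encode the enzymes of cholesterol and fatty acid synthesis and the proteins that set their transcription, measured in bulk RNA of zebrafish leukemias. They were chosen by name: 39 listed zebrafish symbols were looked up among the 32105 Ensembl genes of the count table. Of these, 38 were matched, to 39 identifiers, and fads2 was not matched. The identifiers fell into 21 of sterol synthesis, 13 of fatty acid synthesis and activation, and 5 of regulation and uptake. No measured value was used in the choice, but the list was drawn up with other results of these data known. Where paralogues share a symbol (SQLE, ELOVL1, ACSL4 and ACLY, with 2 identifiers each), the names do not tell which is which, and the identifier is given. The identifiers under ACSL4 may include a paralogue other than the listed acsl4a, and mvda and mvdb share 1 identifier, written MVD. The listed acsl1a was matched through the symbol ACSL1 to 1 identifier, ENSDARG00000030514. It is called acsl1a here, though the symbol does not show which paralogue it is.

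The leukemias were grown in the CG1 strain of zebrafish and grouped by self-renewal capacity, which the submitters defined by the share of cells able to start a new leukemia. By the sample labels, 8 tumors (14 libraries) had high capacity and 3 tumors (6 libraries) had low capacity. The series text, which sets the limit at 1% of cells, gives 6 tumors as high and 5 as low but names none, and the sample labels were used here. All samples were labelled as leukemia cells of blood, and no sample was labelled as normal blood. The sources used here name neither the transgene or mutation that started the leukemias nor its promoter, and they give no age of the fish. The high tumors were 8.4.1.1.1, 14.1.1.1, 4.3.1, 8.3, 2.1, 15.2, 13.1.1 and 7.2.1, and the low tumors were 9.2, 10.2 and 12.2. Per-tumor values below keep this order. Whether each tumor arose in its own fish is not stated, so a p-value here reflects only how these 11 tumors spread.

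Cholesterol is built from acetyl-CoA through mevalonate, farnesyl diphosphate, squalene and lanosterol. Fatty acids are built from the same precursor through malonyl-CoA. Both branches are switched on by the SREBP transcription factors, which are held in the endoplasmic reticulum by INSIG and escorted to the Golgi by SCAP when sterols are scarce. In mammals SREBP-2, from SREBF2, acts mostly on sterol genes and SREBP-1, from SREBF1, mostly on fatty acid genes. Dividing lymphocytes use both branches to make membrane.

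Libraries held 6015050 to 16951341 counts, and tumors, with their libraries summed, 11573276 to 32466048. The 18 T-cell marker genes summed to 5248 to 6074 CPM (counts scaled to normalized library size) in high tumors and to 44.6, 354 and 1130 CPM in low tumors 9.2, 10.2 and 12.2. The 17 B-cell markers summed to 8.14 to 49.7 CPM in high tumors and to 1873, 1189 and 513 CPM in the same low tumors. In the test described below, 4% of all genes were higher and 5.2% lower in high tumors. Of the markers tested, 5 of 17 T-cell genes were higher and 12 of 15 B-cell genes lower in high tumors. The self-renewal label and these lineage transcripts therefore cannot be told apart in any difference between the groups. In bulk RNA, fewer cells of a type and less RNA per cell cannot be told apart either.

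Of the 39 identifiers, 33 passed the filter on low counts, and 1 of them differed between high and low tumors. Genes were called at a Benjamini-Hochberg adjusted p under 0.05 in edgeR's quasi-likelihood test over 16008 genes. The sterol demethylase gene cyp51 was lower in high tumors, and 0 members were higher. The share of members called was 3.03%, against 9.2% of all genes tested (4% higher and 5.2% lower). At an unadjusted p under 0.05, 4 members differed, while 25.5% of all genes did. DESeq2 called 3 members and limma-voom 1, against 17.7% and 9.95% of all genes.

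Fold changes of the members lay on both sides of 0. On the log2 scale, high over low, the median was 0.11 over the 33 members, 0.10 over the 17 sterol members and 0.23 over the 12 fatty acid members, beside 0.04 over all genes tested. Of the 33, 19 were above 0 and 14 below. Standard errors ran from 0.20 to 1.62 with a median of 0.40, and the 95% interval of 10 members lay wholly within ±1. For the other members a larger change in at least one direction lay inside the interval. In 1 tested member every high tumor lay below every low tumor, and in 0 tested members above. Over all genes tested, 5.84% were wholly below and 6.01% wholly above, 11.9% in all.

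**Figure D1:**
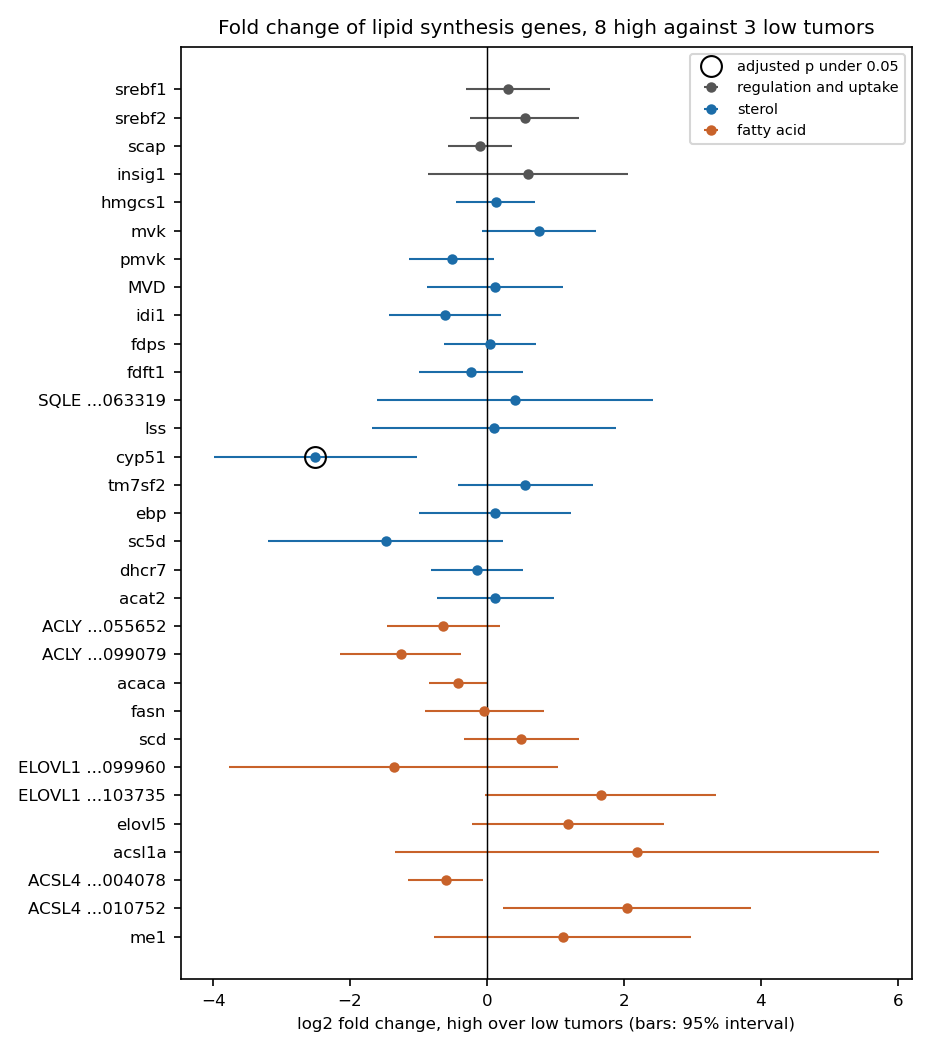
Log2 fold change, high over low tumors, of 31 of the 33 members tested, grouped by branch; bars are 95% intervals from edgeR's quasi-likelihood fit of 8 high and 3 low tumors. The ringed gene, cyp51 at -2.50, passed the adjusted threshold of 0.05.

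The transcription factor genes and their escort were present in every tumor, and none differed between the groups by edgeR's test. The gene srebf1 averaged 164 ± 48.9 CPM in high tumors and 132.5 ± 38.4 CPM in low tumors (SD, n = 8 and 3), a log2 fold change of 0.31 ± 0.28 (SE). The gene srebf2 averaged 74.7 ± 33.9 CPM in high and 51.1 ± 14.04 CPM in low tumors, and its largest value, 145 CPM, was in high tumor 4.3.1. The SREBP escort gene scap averaged 54.7 ± 10.2 CPM in high and 58.8 ± 12.7 CPM in low tumors, with an interval of -0.57 to 0.36.

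The retention gene insig1, itself an SREBP target in mammals, spread more widely. It measured 3.95, 27.1, 6.77, 3.27, 2.70, 13.7, 9.48 and 6.22 CPM in the high tumors and 8.46, 4.61 and 4.98 CPM in the low tumors. Tumors 14.1.1.1 and 15.2 were the highest of all 11, and the groups overlapped. The log2 fold change was 0.60 ± 0.67. The low-density lipoprotein receptor gene ldlra, which takes up cholesterol-carrying particles, was below the count filter. It had 69 counts summed over the high group, 40 of them in tumor 8.3, and 4 over the low group. The other high tumors had 2 to 7 counts each, and the low tumors 1 or 2 each. The gene lay at 0.170 to 1.27 CPM in high tumors and at 0.0357 to 0.0645 CPM in low tumors. Those groups did not overlap, but in the edgeR fit without a filter the adjusted p was 0.134. The paralogue ldlrb, which is outside the member list and was looked at after its values were seen, ranged from 1.29 to 15.7 CPM in high tumors and from 0.431 to 2.86 CPM in low tumors (log2 fold change 1.85 ± 0.86, adjusted p = 0.205 in edgeR).

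HMG-CoA synthase, hmgcs1, at the entry to the mevalonate pathway, was not called by edgeR and averaged 13.6 ± 2.82 CPM in high and 12.4 ± 3.74 CPM in low tumors. The kinases that phosphorylate mevalonate and phosphomevalonate had fold changes of opposite sign, and neither was called. Mevalonate kinase, mvk, measured 4.38, 5.95, 4.62, 3.43, 2.07, 4.91, 3.98 and 6.18 CPM in high tumors and 2.21, 2.61 and 3.01 CPM in low tumors. All high tumors but 2.1 were above every low tumor, but the log2 fold change of 0.76 ± 0.38 did not pass (adjusted p = 0.236, edgeR). Phosphomevalonate kinase, pmvk, measured 12.4, 11.3, 8.24, 9.60, 6.67, 8.49, 11.3 and 9.84 CPM in high tumors and 10.6, 10.2 and 20.9 CPM in low tumors. Low tumor 12.2 stood apart as the highest, and the log2 fold change was -0.52 ± 0.29 (adjusted p = 0.287, edgeR). The decarboxylase MVD, which forms isopentenyl diphosphate, averaged 1.84 ± 0.64 CPM in high and 1.70 ± 0.25 CPM in low tumors. Isopentenyl diphosphate isomerase, idi1, measured 28.2, 81.5, 29.9, 31.6, 26.9, 68.7, 45.6 and 45.8 CPM in high tumors and 87.2, 79.5 and 38.8 CPM in low tumors. High tumors 14.1.1.1 and 15.2, the pair that led in insig1, were the highest of the high group. Tumor 14.1.1.1 lay between low tumors 10.2 and 9.2, and 15.2 below both. The log2 fold change of idi1 was -0.62 ± 0.38 (adjusted p = 0.334, edgeR).

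**Figure D2:**
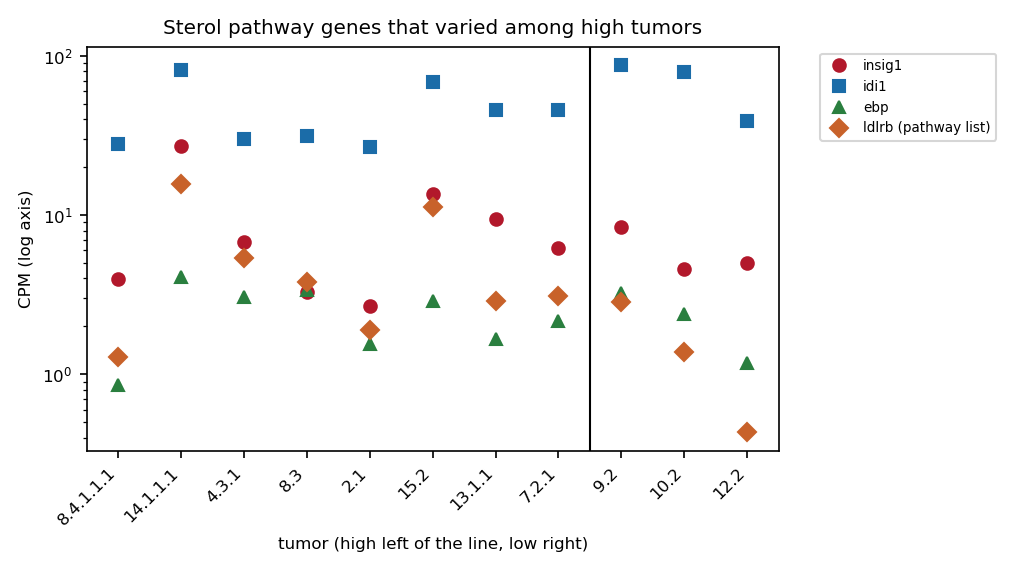
CPM (log axis) of insig1, idi1, ebp and the pathway gene ldlrb in each tumor, high tumors left of the line and low tumors right; the genes were picked after their values were seen. In high tumor 14.1.1.1, which had 1 library, all 4 genes were at their highest level among high tumors.

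No gene of the steps from farnesyl diphosphate to lanosterol was called. Farnesyl diphosphate synthase, fdps, averaged 8.54 ± 2.54 CPM in high and 8.31 ± 0.35 CPM in low tumors. Squalene synthase, fdft1, averaged 7.63 ± 2.56 CPM in high and 8.98 ± 3.21 CPM in low tumors. Squalene epoxidase and lanosterol synthase rested on few counts. SQLE (ENSDARG00000063319) had 99 counts summed over the high and 36 over the low group, and lss had 94 and 47. Both were highest in high tumor 2.1, at 2.36 CPM for SQLE (ENSDARG00000063319) and 2.30 CPM for lss. The second epoxidase identifier, SQLE (ENSDARG00000079946), was below the filter and highest in high tumor 14.1.1.1, at 2.38 CPM.

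The only member called was cyp51, listed as CYP51A1 (ENSDARG00000042641), which removes a methyl group from lanosterol. It measured 0.0858, 0.680, 0.777, 0.286, 0.172, 1.54, 0.995 and 0.511 CPM in high tumors and 2.21, 2.35 and 6.34 CPM in low tumors. Every high tumor was below every low tumor. The log2 fold change was -2.50 ± 0.68 (SE), with a 95% interval of -3.98 to -1.02 and an adjusted p of 0.0406 in edgeR. The difference rested on 103 counts over 8 high tumors and 238 counts over 3 low tumors. The call held without high tumor 8.4.1.1.1, 8.3 or 15.2. It was lost without any 1 of the high tumors 14.1.1.1, 4.3.1, 2.1, 13.1.1 and 7.2.1 (adjusted p = 0.0536 to 0.0665 in edgeR) and without low tumor 9.2 (0.0615), 10.2 (0.0867) or 12.2 (0.212, fold change -1.80). With no count filter the adjusted p was 0.0593. The B-cell markers were lower in the same 8 high tumors, and their part in the cyp51 difference was not tested.

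Past cyp51, no late sterol enzyme was called in the edgeR fit of tumors. Lathosterol desaturase, sc5d, measured 0.515, 0, 0.345, 1.24, 0.517, 2.13, 0.758 and 1.41 CPM in high tumors and 3.07, 2.23 and 2.03 CPM in low tumors. All high tumors but 15.2 were below every low tumor, but the log2 fold change of -1.48 ± 0.79 did not pass (adjusted p = 0.268, edgeR). The sterol reductase gene tm7sf2 averaged 4.31 ± 2.12 CPM in high and 2.93 ± 0.90 CPM in low tumors. The sterol isomerase gene ebp averaged 2.46 ± 1.08 CPM in high and 2.27 ± 1.04 CPM in low tumors. The gene dhcr7, whose product makes the last step to cholesterol, averaged 13.8 ± 5.20 CPM in high and 15.3 ± 1.97 CPM in low tumors. The cytosolic thiolase gene acat2, which joins acetyl-CoA units at the entry to the pathway, averaged 12.2 ± 4.21 CPM in high and 11.2 ± 6.41 CPM in low tumors. The demethylation genes msmo1, nsdhl and hsd17b7 were below the filter, with 50, 72 and 43 counts in the high group and 11, 50 and 7 in the low group.

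**Figure D3:**
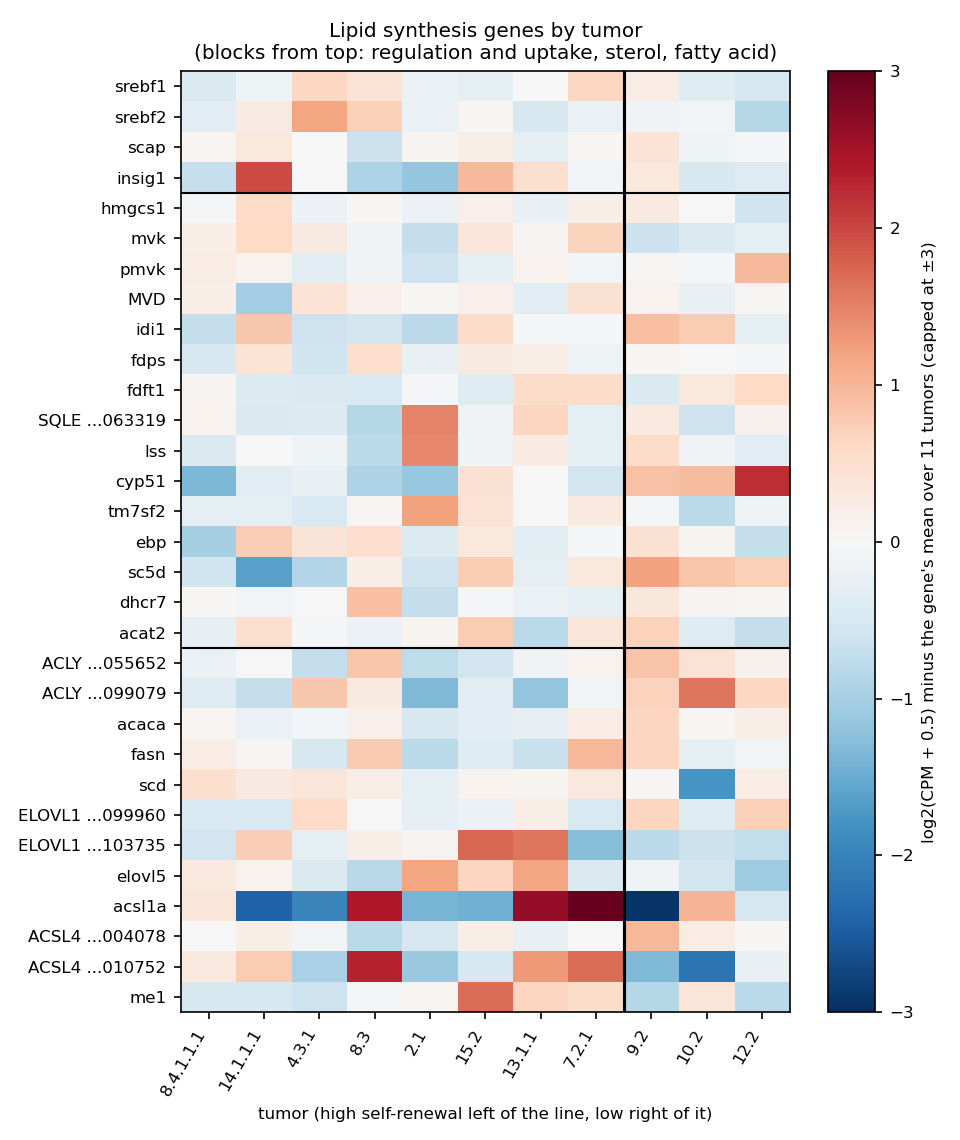
Heat map of 31 tested identifiers (rows) in each tumor (columns, high left of low); colour is log2(CPM + 0.5) minus the identifier's mean over the 11 tumors, capped at ±3. In the row of cyp51 the 3 low tumors have the highest values, and the acsl1a row has the widest range.

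In the fatty acid branch the 2 ATP citrate lyase identifiers, which supply cytosolic acetyl-CoA, were lower in most high tumors without passing the test. ACLY (ENSDARG00000099079) measured 38.3, 30.3, 88.5, 59.9, 19.8, 39.9, 21.6 and 47.5 CPM in high tumors and 80.3, 152.6 and 77.7 CPM in low tumors. All high tumors but 4.3.1 were below every low tumor. The log2 fold change was -1.26 ± 0.41 with an adjusted p of 0.0759 in edgeR, and 0.0432 in DESeq2. Without tumor 4.3.1 it was called by edgeR, at -1.50 (adjusted p = 0.0249). ACLY (ENSDARG00000055652) measured 5.32, 6.21, 3.54, 11.3, 3.45, 4.02, 5.73 and 6.65 CPM in high tumors and 11.6, 8.48 and 6.83 CPM in low tumors. All high tumors but 8.3 lay below the low tumors, and the log2 fold change was -0.64 ± 0.38 (adjusted p = 0.324, edgeR).

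Acetyl-CoA carboxylase, acaca, which commits acetyl-CoA to fatty acids, varied least. It measured 78.5, 65.6, 71.1, 83.6, 54.1, 59.6, 63.0 and 87.5 CPM in high tumors and 117.8, 77.8 and 86.1 CPM in low tumors. The groups overlapped, and the log2 fold change was -0.42 ± 0.20 (adjusted p = 0.207, edgeR). The standard deviation of its log2 CPM among high tumors was 0.24, and 7.42% of all genes tested varied less. Fatty acid synthase, fasn, ran from 234 to 822 CPM in high tumors with a median of 369 CPM, and measured 639, 337 and 386 CPM in the low tumors. High tumors 7.2.1 and 8.3 were above all the low tumors, 4 high tumors were below all of them, and the log2 fold change was -0.04 ± 0.40. The stearoyl-CoA desaturase gene scd, whose product makes monounsaturated fatty acids, lay between 8.91 and 15.6 CPM in the high tumors. It measured 11.4, 2.90 and 12.9 CPM in low tumors 9.2, 10.2 and 12.2, so a single low tumor set its log2 fold change of 0.50 ± 0.38. Malic enzyme, me1, a source of NADPH for the synthesis, averaged 1.18 ± 1.101 CPM in high and 0.541 ± 0.538 CPM in low tumors.

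The elongases had low counts. ELOVL1 (ENSDARG00000103735), which lengthens long saturated chains, measured 1.29, 3.91, 1.68, 2.51, 2.30, 8.34, 7.58 and 0.597 CPM in high tumors and 1.03, 1.19 and 1.11 CPM in low tumors. All high tumors but 7.2.1 were above every low tumor, at a log2 fold change of 1.66 ± 0.77 (adjusted p = 0.204, edgeR). The polyunsaturated elongase elovl5 measured 2.40, 2.04, 1.25, 0.826, 4.83, 3.18, 4.88 and 1.24 CPM in high tumors and 1.68, 1.097 and 0.615 CPM in low tumors. The groups overlapped, and the log2 fold change was 1.18 ± 0.65 (adjusted p = 0.282, edgeR). ELOVL1 (ENSDARG00000099960) summed to 27 counts over each group, and elovl6, below the filter, to 77 in the high and 5 in the low group.

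The acyl-CoA synthetases, which activate free fatty acids, included the member with the widest range and a pair of identifiers with fold changes of opposite sign, none of them called by edgeR. ACSL4 (ENSDARG00000004078) measured 242, 278, 230.1, 139, 174, 280.2, 212 and 247 CPM in high tumors and 492, 286 and 250 CPM in low tumors. High tumor 8.3 was the lowest and low tumor 9.2 the highest of all, and the log2 fold change was -0.60 ± 0.25 (adjusted p = 0.16, edgeR). ACSL4 (ENSDARG00000010752) measured 15.7, 21.8, 6.26, 65.3, 5.58, 9.03, 31.7 and 41.6 CPM in high tumors and 4.82, 2.39 and 10.8 CPM in low tumors. Tumor 8.3, the lowest high tumor in the other identifier, was here the highest. The log2 fold change was 2.05 ± 0.83, with an adjusted p of 0.149 in edgeR and 0.0312 in DESeq2. In tumor 8.3 the proliferation markers summed to 386 CPM, the lowest of all tumors. They summed to 824 to 3122 CPM in the other high and 1325 to 2250 CPM in the low tumors. The myeloid markers summed to 1717 CPM in 8.3, the highest of all tumors. The part of either marker list in these values was not tested.

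The gene acsl1a (listed as ACSL1, ENSDARG00000030514) measured 10.1, 1.02, 1.60, 43.0, 2.64, 2.53, 51.0 and 155 CPM in high tumors and 0.571, 16.2 and 5.23 CPM in low tumors. High tumors 7.2.1, 13.1.1 and 8.3 were above every low tumor, and the rest overlapped with them. Its standard deviation among high tumors, 2.66 on the log2 scale, was larger than that of 98.7% of genes tested, and the log2 fold change was 2.19 ± 1.62 (adjusted p = 0.434, edgeR). CEBPA, a myeloid and liver transcription factor, was picked from the myeloid marker list after its values were seen and was highest in the same 3 tumors, at 34.2 CPM in 7.2.1, 12.98 in 13.1.1 and 12.93 in 8.3. It lay at 1.202 to 8.10 CPM in the other high tumors and 2.11 to 2.46 CPM in the low tumors. The 23 myeloid identifiers summed to 243, 450 and 1717 CPM in 7.2.1, 13.1.1 and 8.3, against 129 to 485 CPM in the other high tumors and 144 to 367 CPM in the low tumors. The sum in 7.2.1, the tumor with the most acsl1a, was below that of 14.1.1.1 (485 CPM), 15.2 (260.4 CPM) and low tumor 12.2 (367 CPM). The 16 liver markers summed to 1.19 to 11.7 CPM in high and 1.36 to 2.83 CPM in low tumors, and fabp10a was at 0 in every low tumor and at most 0.429 CPM in a high tumor. The part of such cells in the acsl1a values was not tested.

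**Figure D4:**
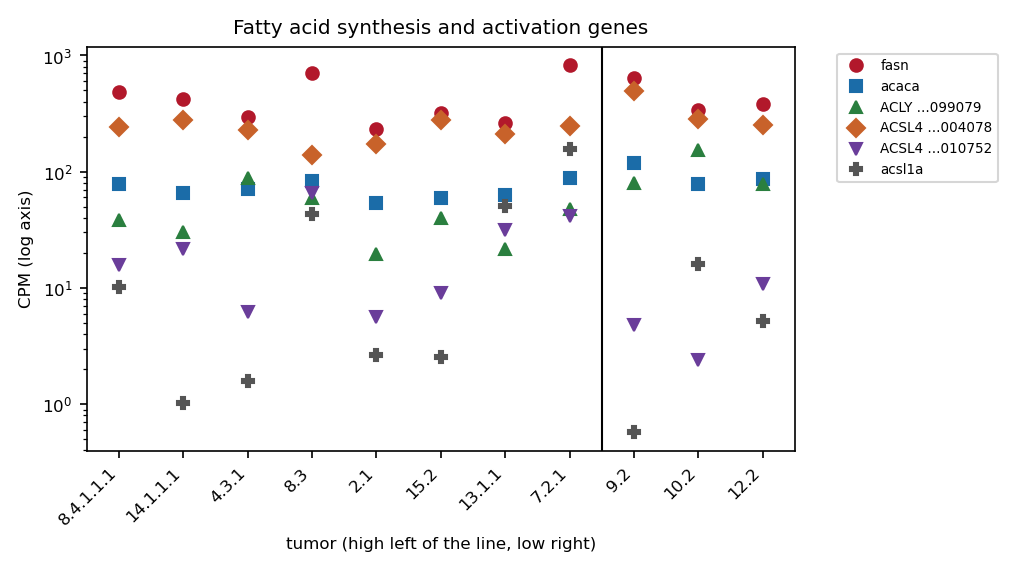
CPM (log axis) of fatty acid branch genes in each tumor, high tumors left of the line and low tumors right; the genes were picked after their values were seen. The acsl1a points run from 1.02 to 155 CPM among high tumors, while those of acaca stay between 54.1 and 87.5 CPM.

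A score for each branch was taken as the mean log2 CPM over its tested members, described here with no test. The sterol score of 17 members was 1.77, 2.27, 2.06, 2.11, 2.01, 2.35, 2.15 and 2.34 in high tumors and 2.67, 2.46 and 2.42 in low tumors. All 8 high tumors lay below the 3 low tumors, with means of 2.13 ± 0.19 and 2.52 ± 0.13 (SD, n = 8 and 3) and a difference of -0.38. Leaving out 1 member in turn gave differences of -0.45 to -0.25 with at least 5 of 8 high tumors below the low tumors, the fewest without cyp51. Over the 9 sterol members with a mean log2 CPM of at least 2, it was -0.37, with 5 of 8 below and 1 above. Without the 3 members of lowest fold change it was 0.0082, with 3 of 8 below, though that choice by itself moves it toward 0. With the median over members in place of the mean, the difference was -0.34. Of the 17 members, 10 had a log2 fold change above 0 and 7 below in edgeR's fit. These fold changes are not the log2 CPM differences that the score averages, and for members near 0 the sign can differ. The count therefore does not settle how many members share the direction of the score.

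The fatty acid score of 12 members was 3.30, 3.13, 3.10, 3.89, 2.92, 3.52, 3.96 and 3.83 in high tumors and 3.25, 3.17 and 3.28 in low tumors. High tumors lay on both sides of the low ones, 5 above and 3 below, with means of 3.46 ± 0.40 and 3.23 ± 0.05 and a difference of 0.22. The score was highest in 13.1.1, 8.3 and 7.2.1, the tumors with the most acsl1a. That gene is 1 of the 12 members averaged and has the widest range, so this match is partly built in. Leaving out 1 member in turn gave differences of 0.080 to 0.37, the smallest without ACSL4 (ENSDARG00000010752). Without acsl1a the difference was 0.13, with 3 high tumors above and 1 below the low tumors. Over the 8 members with a mean log2 CPM of at least 2, the difference was 0.079, with 4 high tumors above and 4 below the low tumors. Without tumor 4.3.1 the difference was 0.42, where ELOVL1 (ENSDARG00000099960) no longer passed the count filter and left the score. The score of the 4 tested regulation genes was 5.50 ± 0.36 in high and 5.27 ± 0.35 in low tumors.

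**Figure D5:**
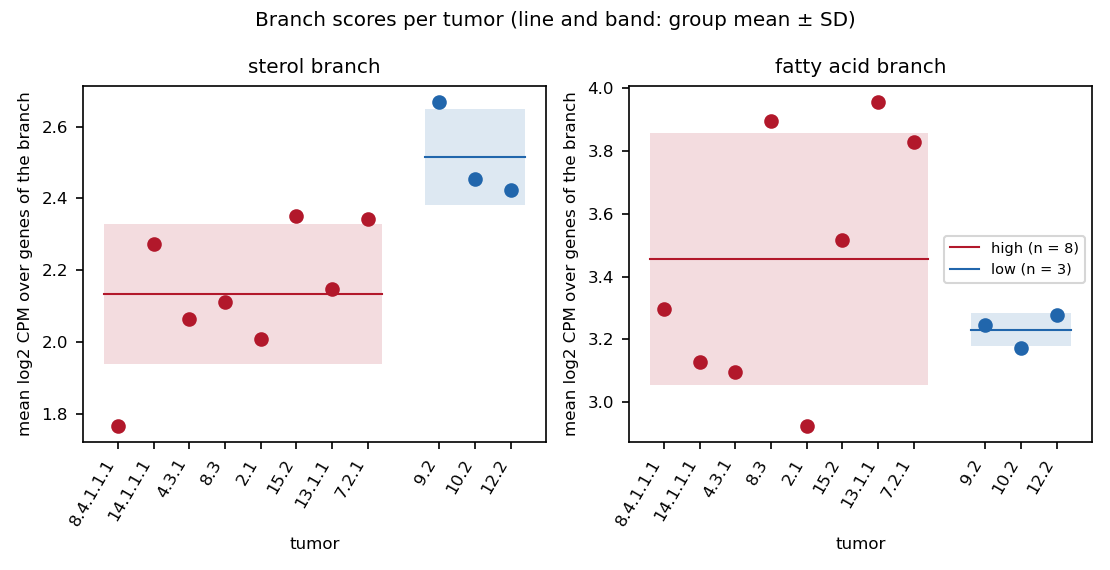
Mean log2 CPM over 17 sterol members (left panel) and 12 fatty acid members (right panel) in each tumor, high tumors left of low; lines and bands are group means ± SD. Sterol scores of the 8 high tumors run from 1.77 to 2.35, under the low tumors' 2.42 to 2.67, and fatty acid scores of the high tumors spread over 1.03 around those of the low tumors.

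The scores spanned more among high tumors than between libraries of a tumor, but a span over 8 values tends to exceed a difference between 2. Over the 9 tumors with 2 libraries, the sterol score differed between libraries by 0.006 to 0.17 (median 0.057), while it spanned 0.59 among high tumors. The lowest sterol score, 1.77, was in tumor 8.4.1.1.1, which had 1 library, and the next was 2.01 in tumor 2.1. The fatty acid score differed by 0.034 to 0.27 between libraries and spanned 1.03 among high tumors. Among low tumors it spanned 0.105, less than the 0.14, 0.24 and 0.27 between the libraries of 9.2, 10.2 and 12.2. By edgeR's F-test across the 8 high tumors, with libraries as units, 36 of 37 identifiers tested varied, as did 94.9% of all genes. Only scd did not pass (adjusted p = 0.0868). Across the 3 low tumors 25 of 33 varied, and 76.8% of all genes did. Both member shares were close to those of all genes.

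Members did not move as one block among the high tumors. The median Pearson correlation over all pairs of log2 CPM values was 0.03 in the sterol branch and -0.01 in the fatty acid branch, beside -0.001 over all genes, each over 8 tumors. A correlation of at least 0.7 was held by 5.88% of sterol pairs and 9.09% of fatty acid pairs, beside 4.34% of all pairs. The sterol pairs include members with few counts, SQLE (ENSDARG00000063319) and lss, whose correlations with dhcr7 were -0.84 and -0.88. Some members did rise together: idi1 correlated at 0.93 with insig1, a regulation gene, and at 0.77 with hmgcs1. The correlations of idi1 with dhcr7 and MVD were -0.06 and -0.62. These pairs were picked after their values were seen. Tumor 14.1.1.1 was the highest high tumor in 5 of 17 sterol members, and tumor 2.1 was the lowest in 6 of 17 sterol and 6 of 12 fatty acid members. The same counts were not made over all genes, so they do not set the members apart from other genes. Tumor 14.1.1.1 had 11573276 counts in 1 library, and tumor 2.1 had 19814360 counts in 2 libraries.

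The other genes of sterol and fatty acid metabolism gave few calls, set here beside 9.2% of all genes. Of 12 further genes listed under sterol synthesis and its control, 0 were higher and 1 was lower in high tumors. It was ACAT1, a mitochondrial thiolase gene, unlike the cytosolic acat2 of the member list. ACAT1 lay at 19.5 ± 6.75 CPM in high and 39.5 ± 8.46 CPM in low tumors (log2 fold change -1.02 ± 0.28, adjusted p = 0.0421, edgeR). It was called without high tumor 8.3 or 7.2.1 and lost without any 1 of the other 9 tumors (adjusted p up to 0.194, without low tumor 10.2), with no count filter (0.0642) and with upper-quartile factors (0.0502). Of 21 genes of sterol export, storage and transport, 1 was higher and 0 were lower, with a median of 0.63. The higher gene was GRAMD1B (ENSDARG00000075383), which carries cholesterol from the plasma membrane to the endoplasmic reticulum in mammals. It lay at 37.2 to 89.7 CPM in high tumors and at 9.85, 15.8 and 24.0 CPM in low tumors (log2 fold change 1.86 ± 0.36, adjusted p = 0.00921, edgeR). Every high tumor was above every low tumor, and only the fit without low tumor 10.2 missed the call (1.82, adjusted p = 0.0517).

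Of 25 further genes of fatty acid synthesis, 0 were higher and 1 was lower. The dehydratase gene HACD1, which takes part in elongation of very long chains, lay at 0.0635 to 2.98 CPM in high tumors and at 24.7, 31.6 and 13.96 CPM in low tumors (log2 fold change -4.38 ± 0.69, adjusted p = 0.00276, edgeR). Every high tumor was below every low tumor. Of 28 genes of glycerolipid and phospholipid synthesis, 0 were higher and 1 was lower. It was GPAT3 (ENSDARG00000016048), which starts glycerolipid synthesis, at 14.4 ± 4.60 CPM in high and 45.3 ± 7.39 CPM in low tumors (log2 fold change -1.65 ± 0.32, adjusted p = 0.00906, edgeR). Of 29 genes of fatty acid oxidation, 0 were called in edgeR. The 2 with the smallest p were the mitochondrial thiolase gene ACAA2 (log2 fold change -0.54 ± 0.18, adjusted p = 0.0824) and the lipid-sensing receptor gene PPARA (1.11 ± 0.44, adjusted p = 0.136).

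Of 29 genes of the kinase pathways upstream of the SREBPs, 1 was higher and 2 were lower in high tumors. Beside them, 4% of all genes tested were higher and 5.2% lower, 9.2% in all. The kinase gene akt1 lay at 1.14 to 5.50 CPM in high tumors and at 16.0, 15.2 and 11.6 CPM in low tumors (log2 fold change -2.39 ± 0.44, adjusted p = 0.00682, edgeR). AKT2 (ENSDARG00000103612) lay at 4.17 to 18.4 CPM in high tumors and at 1.78, 0.936 and 1.17 CPM in low tumors (2.63 ± 0.55, adjusted p = 0.0131, edgeR). Neither paralogue overlapped between the groups, nor did 11.9% of all genes tested. AKT2 missed the call without low tumor 10.2 (adjusted p = 0.0746, edgeR). PRKAA2, a catalytic subunit of the energy-sensing kinase AMPK, lay at 0.0575 to 0.767 CPM in high tumors and at 9.99, 1.58 and 0.308 CPM in low tumors. The groups overlapped at low tumor 12.2, and the log2 fold change was -3.96 ± 0.90 (adjusted p = 0.0191, edgeR), but -1.91 without low tumor 9.2 (adjusted p = 0.26), and the adjusted p was 0.0574 in limma-voom.

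The genes whose log2 CPM was most like the sterol score over the 8 high tumors were si:ch211-200p22.4, PLEKHA8, atp6v1e1b, ADCY7, SIKE1, LIN9, pik3r3a and zgc:77375. Their Pearson correlations ran from 0.94 to 0.89, ranked among 8787 genes outside the lists with a mean log2 CPM of at least 3. The lipid transfer protein gene PLEKHA8, for example, measured 14.7, 21.8, 16.1, 17.7, 14.9, 20.8, 18.3 and 20.4 CPM in the high tumors. High values from so many genes and 8 tumors are a description of these tumors.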

How the data were processed

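The authors deposited raw counts per Ensembl gene, 1 column per library, made with STAR, Picard and featureCounts on GRCz10, per the submitters' processing notes. The sources used here state no version, annotation release or strand setting, so overlapping and near-identical genes may share or lose reads. Per the labels, polyA RNA was sequenced on an Illumina HiSeq.

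Libraries of a tumor were summed, giving 8 high and 3 low tumors. R 4.3.3 and edgeR 4.0.16 were used: filterByExpr by group, TMM, estimateDisp, glmQLFit and glmQLFTest (two-sided), Benjamini-Hochberg adjustment over 16008 genes, threshold 0.05. Log2 CPM used a prior count of 2. No level was divided by gene length, so levels are compared within a gene only. Differences among tumors of a label were tested with libraries as units. Alternatives used DESeq2 1.42.0 and limma 3.58.1, other factors, filters, units and tumor sets. The fits were tested on simulated data. Tables and plots used Python 3.11.15, pandas 2.3.3 and matplotlib 3.10.9.

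Members and lists were chosen with earlier results of these data known. Values in every tumor are given for the called member and the next members by p, to 12 in all; insig1, acsl1a and genes of the plots by tumor were added after their values were seen. Of each pathway list, called genes are named, or the 2 with the smallest p. Gene names came from a table of Ensembl identifiers. In each of the 9 tumors with 2 libraries, these differed beyond sampling noise (chi-square per degree of freedom of 1.31 to 31.3). None was therefore counted as a repeat deposit. Sequences, promoters and coordinates were not analysed here, and values of 2 of the member identifiers are not reported here.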

Additional observations from a re-analysis of the deposited data

Results flagged for a closer look

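Among the 8 high tumors, dhcr7 (ENSDARG00000103226), the gene of the last step to cholesterol, had 1 tumor far from the others. It measured 25.8 CPM in tumor 8.3 and 8.16 to 13.9 CPM in the other 7. On the log2 scale the gap to the nearest tumor was 0.538 of the whole range, above Dixon's critical value at 95% for 8 samples. Of 36 groups of values examined, this was the only one so far apart, and chance flags about 1 in 20. The low tumors had 13.9 to 17.5 CPM. In tumor 8.3 the myeloid markers summed to 1717 CPM, the highest of all tumors, and the proliferation markers to 386 CPM, the lowest. Their part in the dhcr7 value was not tested.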

How the results depend on the processing

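The count of 1 lower and 0 higher members was 0 lower at an adjusted p under 0.01 and with no filter, and 2 lower and 1 higher in DESeq2. With libraries as units it was 6 lower and 3 higher both without a replicate block and with the replicate block; the number of a library only names it within its tumor and pairs no tumors, and libraries of a tumor are not independent. Leaving out 1 tumor gave 0 to 1 lower members: cyp51 without 8.4.1.1.1, 8.3 or 15.2, and ACLY (ENSDARG00000099079) without 4.3.1. Over all genes, 641 higher and 832 lower became 159 and 318 at 0.01, 2688 and 2272 with libraries as units, and 2543 and 2199 with the replicate block. DESeq2 called 1657 higher and 1171 lower, more higher than lower, the reverse of edgeR. Leaving out 1 tumor gave 196 to 745 higher and 403 to 1044 lower. The sterol score difference was 0.0082 without the 3 members of lowest fold change, a choice that by itself moves it toward 0, and the fatty acid difference was 0.69 with the median over members.

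Of 650 member fold changes under alternatives, 598 kept direction and call, 23 in 10 members turned sign, 19 gained the call and 10, all of cyp51, lost it. The 10 members were all uncalled, with fold changes near 0 relative to their errors. Leaving out 1 tumor gave log2 values of -0.21 to 0.083 for SCAP, -0.049 to 0.33 for HMGCS1, -0.0038 to 0.25 for MVD, -0.048 to 0.12 for FDPS, -0.49 to 0.052 for FDFT1, -0.18 to 0.81 for SQLE (ENSDARG00000063319), -0.53 to 0.72 for LSS, -0.15 to 0.46 for EBP, -0.10 to 0.69 for ACAT2 and -0.22 to 0.29 for FASN. Limma-voom gave -0.0009 for FDPS and -0.33 for LSS. The cause was not tested. With 3 low tumors and low counts for cyp51, sc5d, SQLE, lss and the elongases, 10 of 33 intervals lay within ±1.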

Other observations

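Some pairs of members rose and fell together over the 8 high tumors, and those given here are a description picked from 595 pairs. The correlation of log2 CPM was 0.93 between insig1 and IDI1 (Spearman 0.83), 0.90 between ACACA and FASN (0.88), and 0.95 between ACLY (ENSDARG00000055652) and ACSL4 (ENSDARG00000010752) (0.98). For SQLE (ENSDARG00000063319) and LSS it was 0.88, but the rank correlation was 0.60 and tumor 2.1 was highest in both. The points share the self-renewal label and the scaling to library size, and 2 of them, 8.3 and 8.4.1.1.1, share the first number of their titles.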
